A study of Homo sapiens with 6 samples.

Results

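Mitochondrial ribosomal protein genes were followed in cultured ACHN cells, a human renal carcinoma line that the labels class as clear cell renal cell carcinoma. All rows of the count table whose gene name was MRPL or MRPS, then a number and at most 1 letter, were taken. This gave 77 of the 20532 genes in the table, 49 named for the large subunit and 28 for the small subunit. Every one of the 77 passed the filter on low counts. The control group was 3 libraries (shCtrl 1, 2 and 3) of cells transduced with lentivirus for a negative control short hairpin RNA. The knockdown group was 3 libraries (shDNAJC2 1, 2 and 3) of cells transduced with a hairpin against DNAJC2, a co-chaperone that works at the cytosolic ribosome. Both groups therefore carried a lentiviral hairpin, and the labels gave no time after transduction. The design text calls the lines stable and the replicates biological, and whether each replicate was transduced separately was not stated. The p-values therefore cover the spread between these libraries, which may be technical.

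The mitochondrial ribosome is a separate ribosome inside the organelle. It translates the messages of the mitochondrial genome, which encode core subunits of the respiratory chain and of ATP synthase. Its ribosomal RNAs come from that genome, whereas all of its proteins are encoded in the nucleus, translated in the cytosol and imported. Some of these proteins descend from bacterial ribosomal proteins, and others were added during the evolution of mitochondria. Gene names follow the subunit with exceptions: the products of MRPS30 and MRPS18A sit in the large subunit.

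Promoter sequences show what many members share beyond their name, and they are given first for that reason. RefSeq windows (GRCh38.p14, 250 bases before to 50 after the first listed start) were found for 69 of the 77 members. The sequence CCGGAAG, the core bound by ETS factors such as GABP, was sought on both strands and stood in 29 of the 69 windows (42.0%), against 18.9% of 10963 windows of genes tested and 10.7% of all 27305 windows. AAGATGGC, the core of the YY1 motif, stood in 20 of the 69 (28.99%), against 5.14% and 3.03%. GCATGCGC, part of the NRF1 motif, stood in 6 (8.70%), against 5.40% and 3.27%. The ETS and YY1 letters can share the bases AAG where they adjoin. The median position of the first match was 32 bases before the start for the ETS letters and base 12 after it for the YY1 letters. Both subunits held them: 17 of 42 large and 12 of 27 small subunit windows had the ETS letters, and 12 and 8 had the YY1 letters. A match describes letters in a window and does not show binding.

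Windows from 90 bases before to 30 after the start are shown for 5 members, 5′ to 3′ on the strand of the gene, with matches to these 3 sequences in capitals. They were chosen after the values were seen: MRPS10, MRPL3 and MRPS17 had higher fitted values in the knockdown, MRPL28 and MRPS7 lower ones. They lie at chr6:42217832-42217951 (minus strand), chr3:131502942-131503061 (minus), chr17:75261789-75261908 (plus), chr16:370509-370628 (minus) and chr7:55951787-55951906 (plus), in the order printed.
MRPS10: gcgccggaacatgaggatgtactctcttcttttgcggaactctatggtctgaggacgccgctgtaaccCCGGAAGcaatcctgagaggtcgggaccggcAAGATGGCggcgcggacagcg
MRPL3: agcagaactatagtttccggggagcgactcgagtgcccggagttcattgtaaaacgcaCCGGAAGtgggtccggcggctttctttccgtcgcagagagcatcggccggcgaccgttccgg
MRPS7: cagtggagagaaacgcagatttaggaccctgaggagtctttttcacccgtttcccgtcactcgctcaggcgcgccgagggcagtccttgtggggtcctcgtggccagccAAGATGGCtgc
MRPL28: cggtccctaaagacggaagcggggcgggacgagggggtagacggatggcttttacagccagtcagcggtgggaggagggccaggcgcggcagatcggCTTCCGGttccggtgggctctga
MRPS17: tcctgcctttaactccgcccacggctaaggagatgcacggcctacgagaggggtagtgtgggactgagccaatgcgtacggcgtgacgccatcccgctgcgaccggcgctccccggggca
MRPS10 held both the ETS and the YY1 letters, MRPL3 and MRPL28 the ETS letters (in MRPL28 as their reverse complement), MRPS7 the YY1 letters and MRPS17 none of the 3. Members that were higher in the knockdown thus had windows with and without the ETS and the YY1 letters, and so did those that were lower. The median fitted log2 fold change was 0.02 for members with the ETS letters and 0.06 for those without, and 0.11 and 0.02 with and without the YY1 letters.

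Total counts ranged from 17491462 to 25760291 per library. The hairpin target DNAJC2 had 76.7, 69.8 and 86.5 CPM (counts scaled to the TMM-normalized library size) under shCtrl against 51.2, 50.4 and 38.5 CPM after knockdown, 60.1% of control in the fit (95% interval 47.0 to 76.8%). In edgeR this came with an adjusted p of 0.43, and of 0.0080 without shCtrl 3. The exact permutation p (two-sided) was 0.1, which is the floor for 3 libraries against 3. HSPA14, the partner of DNAJC2 at the ribosome, had 25.5, 26.9 and 28.2 CPM against 36.4, 33.2 and 33.3 CPM, a log2 fold change of 0.35. The library shCtrl 3 stood apart from the other controls across the transcriptome: for 74.6% of the 13988 genes tested its level lay nearer to the knockdown mean than to the mean of shCtrl 1 and 2. On the first principal component of log2 CPM (79.4% of the variance), shCtrl 1, 2 and 3 lay at −52.6, −51.0 and 36.1. There shDNAJC2 1 and 2 lay at 34.3 and 34.6, and shDNAJC2 3 stood apart from them at −1.40, towards shCtrl 1 and 2. Calls and medians of the members and of the related lists are given with and without shCtrl 3. Of 12 renal markers, PAX2, LHX1 and CDH16 were among those below 1 CPM in every library, and CDH16 had 0 counts. All 12 summed to 3552 to 4515 CPM in the controls against 3116 to 3971 CPM in the knockdown. Most of these sums came from 1 gene with a mean of 3611 CPM, so they do not describe the list as a set. Over the 8 renal markers tested the median level was 20.6 CPM, and log2 fold changes ran from −1.54 to 1.16. Blood and immune markers summed to 72.0 to 94.4 CPM with 5 of 7 below 1 CPM. The 6 fibroblast markers summed to 4180, 4191 and 1023 CPM in shCtrl 1, 2 and 3 and to 914, 950 and 1586 CPM in shDNAJC2 1, 2 and 3. All 6 had negative fitted log2 fold changes, with a median of −0.97 (−1.24 without shCtrl 3). Their part in the results was not tested.

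As a group, messages for the mitochondrial ribosome differed little between knockdown and control in the fit of all 6 libraries. Fitted log2 fold changes ran from −0.31 for MRPL53 to 0.44 for MRPS35, that is from 0.808 to 1.36 times the control level. All 77 lay within 0.5 of 0 on the log2 scale, as did 83.7% of all genes tested, which include genes of lower count. The median was 0.05 over the 77, with 48 positive and 29 negative, against −0.02 and 47.7% positive over all genes tested. Large subunit genes had a median of 0.02 (28 of 49 positive) and small subunit genes 0.06 (20 of 28 positive). These medians were 0.03 and 0.10 without shCtrl 3, and 0.08 and 0.14 without shDNAJC2 3. With MRPS30 and MRPS18A moved to the large subunit, where their proteins sit, the medians were 0.03 and 0.06. Members of bacterial type had a median of 0.03 (46 genes) and those specific to mitochondria 0.06 (31 genes). For 51 of the 77 the whole 95% interval of the log2 fold change lay within 0.5 of 0, and for 76 within 1 of 0. The exception was MRPS35, whose interval reached 1.005. Fitted values were larger without shCtrl 3, where MRPS35, MRPS30, MRPS10, MRPS33, MRPL15, MRPL32 and MRPL52 lay above 0.5, up to 0.72. The median absolute log2 fold change of the members was then 0.18, against 0.12 with all 6 libraries. Over all genes tested it was 0.31 without shCtrl 3 and 0.21 with it.

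With all 6 libraries, no member passed in edgeR's quasi-likelihood test once p was adjusted for every gene tested (smallest adjusted p = 0.43), and no gene in the table did (0%). At an unadjusted p under 0.05 there were 5 members, 4 higher and 1 lower, or 6.49% of the 77 against 11.3% of all genes (4.0% higher and 7.33% lower). limma-voom also called 0 members and 0% of genes, with 5 members and 10.5% of genes at an unadjusted p under 0.05. DESeq2 called 0 members and 0.353% of the 9903 genes in its adjusted test. At an unadjusted p under 0.05 it had 5 members and 13.5% of 13971 genes. The groups did not overlap for 10 members, 5 higher and 5 lower, or 12.99% against 15.8% of all genes (7.33% higher and 8.43% lower). These shares lay near or below those of the whole table.

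**Figure D1:**
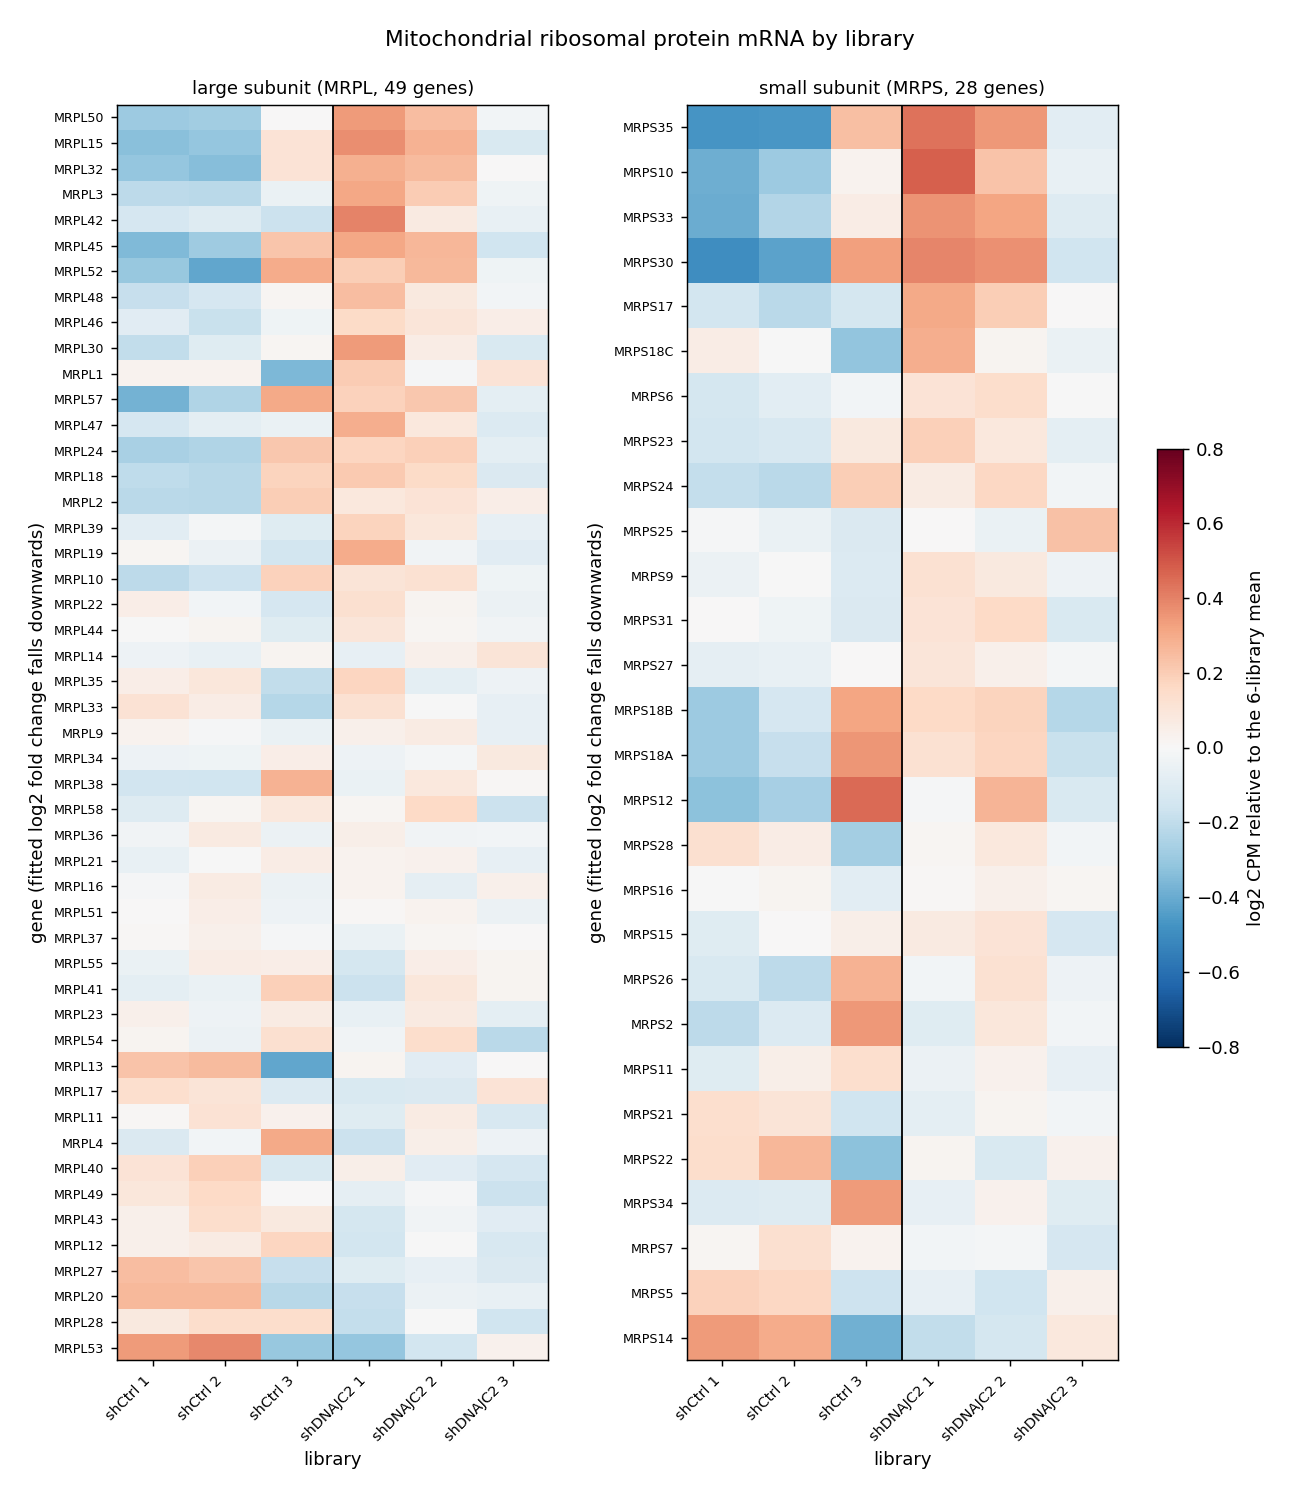
Level of each of the 77 genes (rows, in order of fitted log2 fold change) in each library (columns), as log2 CPM relative to the gene's mean over the 6 libraries, with red above and blue below that mean and the large subunit at left. Most cells are pale, and among the strongest colours are MRPS35, MRPS10 and MRPS30, where shCtrl 1 and 2 are low and shDNAJC2 1 and 2 are high.

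The 4 members that were higher at an unadjusted p under 0.05 came from both subunits. MRPS10 (ENSG00000048544, chromosome 6, 42206801 to 42217865), a core protein of the small subunit shared with bacteria, had 62.1, 66.7 and 83.2 CPM in the shCtrl libraries (always in the order 1, 2, 3) against 113, 95.7 and 78.4 CPM in shDNAJC2. The groups overlapped, since shCtrl 3 lay above shDNAJC2 3. Its log2 fold change was 0.44 (SE 0.17). MRPL3 (ENSG00000114686, chromosome 3, 131462212 to 131502983), a large subunit protein of bacterial descent, was at 91.3, 90.7 and 102 CPM under the control hairpin against 131, 121 and 103 CPM after knockdown, a log2 fold change of 0.32 (SE 0.12). All 3 knockdown values lay above all 3 control values, with shCtrl 3 and shDNAJC2 3 nearly touching.

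MRPS17 (ENSG00000239789, chromosome 7, 55951819 to 55956501), which binds ribosomal RNA in the small subunit, was at 21.5, 20.5 and 21.5 CPM in the controls, a narrow band, and at 29.3, 27.2 and 23.8 CPM in the knockdown. Its log2 fold change was 0.34 (SE 0.12), and the groups did not overlap. In this gene shCtrl 3 stood with the other controls. MRPL50 (ENSG00000136897, chromosome 9, 101387633 to 101398614), a protein found only in mitochondrial ribosomes, was at 23.4, 23.6 and 28.8 CPM under the control hairpin against 36.3, 34.1 and 28.3 CPM after knockdown, a log2 fold change of 0.38 (SE 0.15). Here shCtrl 3 lay just above shDNAJC2 3, so the groups overlapped.

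MRPL28 (ENSG00000086504, chromosome 16, 366969 to 371289), of bacterial type and in the large subunit, was the only member lower at an unadjusted p under 0.05. It was at 105, 109 and 110 CPM under the control hairpin against 87.0, 99.0 and 88.8 CPM after knockdown, without overlap, and its log2 fold change was −0.24 (SE 0.10). All 5 of these members had an adjusted p = 0.43 in edgeR's test. MRPL12, the stalk protein that recruits translation factors and also binds the mitochondrial RNA polymerase, was lower without overlap as well, at 88.3, 89.8 and 96.9 CPM against 77.6, 85.9 and 78.5 CPM. Its log2 fold change was −0.18 with a 95% interval of −0.41 to 0.04. The other members without overlap were MRPS6, MRPL46 and MRPL42 among the higher and MRPL43, MRPL49 and MRPS7 among the lower. For 9 of these 10 members shCtrl 3 lay nearer to shCtrl 1 and 2 than to the knockdown mean. This follows in part from their choice, since lack of overlap puts shCtrl 3 on the control side of every knockdown library.

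**Figure D2:**
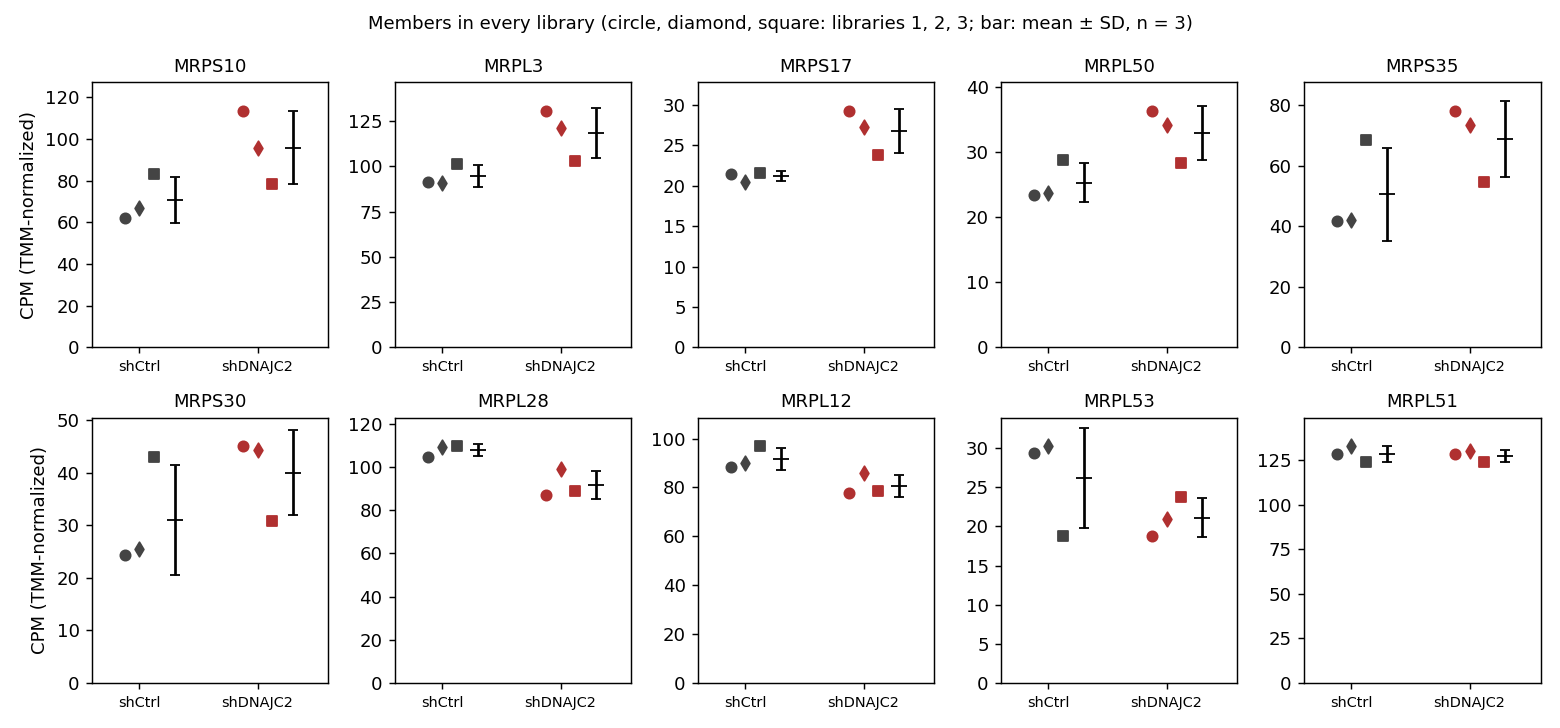
TMM-normalized CPM of 10 members in every library, with control libraries in grey, knockdown libraries in red, and the mean and SD of each group (n = 3) beside them. MRPL28 and MRPL12 have every control above every knockdown library, MRPS35 and MRPS30 have shCtrl 3 up with shDNAJC2 1 and 2, and MRPL51 is level across all 6.

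Without shCtrl 3, which leaves 2 control libraries against 3, 17 members passed in edgeR after adjustment over all genes. That was 22.1% of the 77 against 34.8% of the 14201 genes tested. The 13 that rose (16.9%, against 17.8% of all genes) changed by 0.31 to 0.72 on the log2 scale, and the 4 that fell (5.19%, against 17.0%) by −0.49 to −0.32. For 16 of the 17, the level in shCtrl 3 was closer to the knockdown mean. Only MRPL3 was also without overlap over all 6 libraries. This library was set aside with the data in view, so these counts describe 5 libraries and are not an independent test.

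MRPS35 (ENSG00000061794, chromosome 12, 27710773 to 27756295), a small subunit protein specific to mitochondria, rose most in that fit, by 0.72 (adjusted p = 0.0084 in edgeR). It was at 41.6, 41.9 and 68.3 CPM under the control hairpin against 78.1, 73.6 and 54.5 CPM after knockdown, so that shCtrl 3 exceeded shDNAJC2 3. With all 6 libraries its log2 fold change was 0.44 (95% interval −0.12 to 1.005). MRPS30 (chromosome 5, 44808925 to 44820428) showed the same order, at 24.3, 25.5 and 43.1 CPM against 45.1, 44.3 and 30.7 CPM, and rose by 0.68 without shCtrl 3. MRPL32, whose precursor is cut by a mitochondrial protease before it joins the ribosome, was at 38.1, 37.3 and 50.9 CPM against 57.7, 56.3 and 47.4 CPM and rose by 0.52. MRPL52, specific to mitochondria, was at 51.9, 48.1 and 78.6 CPM against 73.4, 76.8 and 62.6 CPM and rose by 0.51. In MRPL52 shCtrl 3 had the highest level of all 6 libraries. MRPS10, MRPL50 and MRPL3 were also among the 13, whereas MRPS17 missed the threshold (0.35, adjusted p = 0.0596 in edgeR).

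The 4 that fell without shCtrl 3 were MRPL53, MRPL20, MRPL27 and MRPS14. MRPL53 (chromosome 2, 74471958 to 74473322), specific to mitochondria, was at 29.4, 30.3 and 18.8 CPM under the control hairpin against 18.7, 20.9 and 23.7 CPM after knockdown. MRPL20, of bacterial descent, was at 76.2, 76.1 and 54.6 CPM against 55.9, 61.6 and 61.1 CPM. MRPL27, which lies close to the peptidyl transferase centre, was at 54.4, 53.5 and 40.4 CPM against 42.8, 43.8 and 42.3 CPM. MRPS14, also of bacterial descent, was at 27.7, 26.9 and 16.8 CPM against 19.1, 19.9 and 23.2 CPM. In each of them shCtrl 1 and 2 were the highest libraries and shCtrl 3 was below the knockdown mean. In MRPL20, MRPL27 and MRPS14 shCtrl 3 was the lowest of all 6, and in MRPL53 it was level with shDNAJC2 1.

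**Figure D3:**
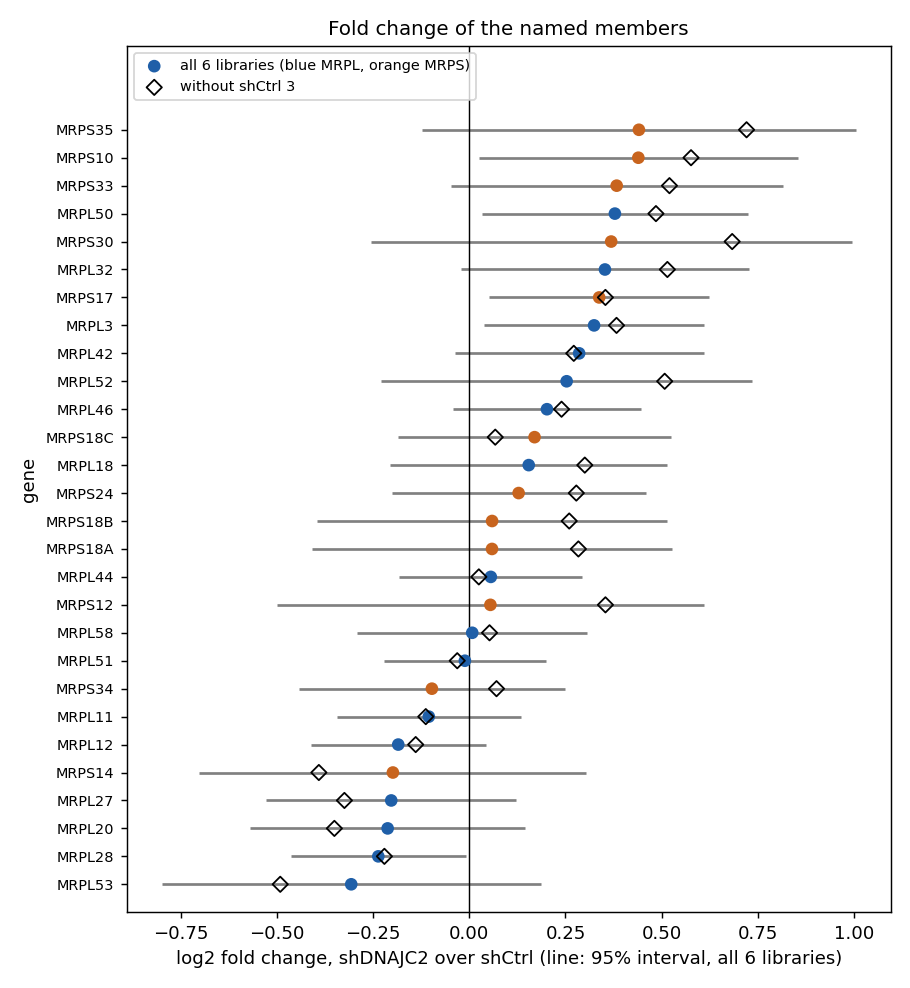
Fitted log2 fold change of the 28 named members (filled points, with 95% interval, over all 6 libraries) and the value without shCtrl 3 (open diamonds). For MRPS35, MRPS30 and MRPL52 the diamond moves outward to 0.72, 0.68 and 0.51, and for MRPS17 and MRPL28 it stays near the filled point.

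Members with a special place in the ribosome were described whatever their result. The MRPS18 paralogs occupy different sites: MRPS18C and MRPS18B in the small subunit and MRPS18A in the large. MRPS18A was at 28.3, 30.5 and 44.1 CPM against 37.7, 39.0 and 30.6 CPM, and MRPS18B at 67.4, 75.2 and 103 CPM against 92.1, 93.2 and 70.4 CPM. In both, shCtrl 3 was the highest library and shDNAJC2 3 lay among the lowest 3, and each had a log2 fold change of 0.06. MRPS18C differed, with shCtrl 3 its lowest library (39.8, 38.0 and 30.6 CPM against 46.5, 38.8 and 36.7 CPM) and a log2 fold change of 0.17. Whether the paralogs differ in their response was not tested.

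MRPS12, part of the decoding centre, spread widely among the controls, at 35.4, 37.1 and 61.1 CPM, and was at 44.2, 53.7 and 41.0 CPM in the knockdown. Its log2 fold change of 0.05 had an interval of −0.50 to 0.61. MRPL58, a peptidyl-tRNA hydrolase that rescues stalled ribosomes, had a log2 fold change of 0.01 (−0.29 to 0.31), and MRPL44, which has a fold of ribonuclease III type, one of 0.06 (−0.18 to 0.29). MRPL11, at the base of the stalk, had −0.11 (−0.34 to 0.13). These intervals hold 0, and none of these members differed detectably between the groups. The table lists the gene once called MRPS36 as KGD4, now known as a subunit of the 2-oxoglutarate dehydrogenase complex, so it was not counted. It was at 28.9, 27.8 and 23.9 CPM against 31.8, 29.003 and 26.6 CPM.

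Levels of the members lay in a band. Mean CPM over the 6 libraries ran from 18.1 to 128, a range of 7.06-fold. Per kb of the longest annotated transcript, MRPL51 (104 CPM per kb) and MRPL18 (85.8) were highest in the large subunit and MRPS34 (87.2) and MRPS24 (63.5) in the small. MRPL42 (4.397) and MRPL46 (4.85) were lowest in the large subunit and MRPS33 (5.67) and MRPS30 (8.20) in the small. The longest transcript need not be the one expressed: for MRPL42 it was 15582 bases, against a median of 1727 over the members, so its value per kb may be too low. The SD of log2 CPM per kb was 1.004 over the large subunit genes and 0.98 over the small. MRPL51, highest per kb, was also among the most level across libraries, at 128, 133 and 124 CPM against 129, 130 and 124 CPM, and its log2 fold change was −0.01 (95% interval −0.22 to 0.20).

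The order of the libraries by the group's total depended on the scaling. As a share of all raw counts, the 77 genes took 0.432%, 0.432% and 0.404% in the controls, against 0.429%, 0.424% and 0.421% in the knockdown. On that scale shCtrl 3 was lowest and the knockdown libraries lay between it and the other controls. On the TMM scale the summed CPM was 4017, 4104 and 4353 in the controls, against 4459, 4440 and 4075 in the knockdown. There shCtrl 3 lay above shCtrl 1 and 2, and shDNAJC2 3 lay between those 2. Relative to its mean over the 6 libraries the median member stood at −0.04, −0.02 and 0.01 in the controls and 0.05, 0.05 and −0.05 in the knockdown for the large subunit. For the small subunit it was −0.10, −0.07 and 0.03 against 0.07, 0.09 and −0.05. On either scale the knockdown and control libraries overlapped.

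The members' fold changes varied with the GC content of their transcripts, and less with transcript length. GC content of the longest transcript ran from 33.5% (MRPL13) to 71.9% (MRPL41). Across the 77 genes, which share the same 6 libraries and are not independent, Pearson's r between GC content and log2 fold change was −0.54 and Spearman's rho −0.57, against −0.32 and −0.39 across 13811 genes tested. Without shCtrl 3 the values were smaller, −0.26 for both coefficients across the members and −0.16 and −0.20 across the genes tested. For the log2 of transcript length, Pearson's r across the members was 0.28 and Spearman's rho 0.23, against 0.016 and 0.034 across the genes tested. The 39 members at or below the median GC content had a median log2 fold change of 0.14, with 34 positive, and the 38 above it −0.03, with 14 positive. Without shCtrl 3 these medians were 0.12 and 0.0023. All 5 members that were higher without overlap were in the first set and all 5 that were lower without overlap in the second. Shares among all genes tested of like GC content were not computed, either for sign or for lack of overlap. Whether the members split by GC content more than other genes was therefore not tested. The summed CPM of the low-GC members was 1897, 1918 and 1985 in the controls and 2310, 2173 and 1991 in the knockdown, without overlap. The gap was narrow, with shCtrl 3 at 1985 and shDNAJC2 3 at 1991. The summed CPM of the high-GC members was 2120, 2186 and 2368 against 2149, 2267 and 2083, with overlap.

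With each library's GC trend taken out, the rank correlation across the members was 0.22 and the median log2 fold changes were 0.06 for the low-GC and 0.12 for the high-GC members. MRPL28 went from −0.24 to 0.0044 and MRPL12 from −0.18 to 0.08. MRPS10 went from 0.44 to 0.33 and MRPL50 from 0.38 to 0.20, while MRPS17 went only from 0.34 to 0.30. No member passed after adjustment in that fit of edgeR either, and 2 had an unadjusted p under 0.05 (MRPS17, and MRPL41 at 0.31), both higher, against 1.56% of all genes higher and 4.20% lower. Whether the trend is technical was not tested. DNAJC2 was at −0.82 with the trend removed.

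**Figure D4:**
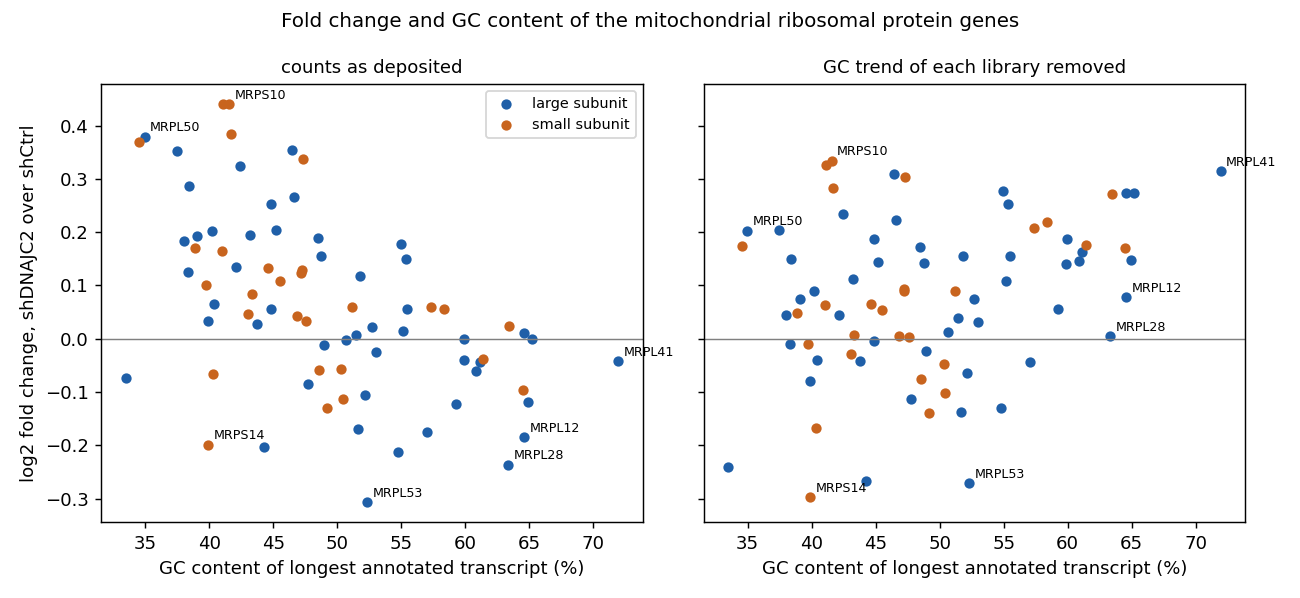
Log2 fold change of each of the 77 members against the GC content of its longest annotated transcript, from the counts as deposited (left) and with each library's GC trend removed (right). The downward slope at left (Spearman's rho −0.57) is absent at right (0.22), where MRPL28 and MRPL12 lie at or above 0.

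By position the members were scattered, on 21 chromosomes, with 8 each on chromosomes 1, 2 and 17. A protein-coding neighbour read in the opposite direction began within 1000 bases upstream of 17 of the 77 (22.1%), against 9.55% of 13781 protein-coding genes tested. MRPL46 and MRPS11, 1 gene of each subunit on chromosome 15, start 34 bases apart and are read away from each other. MRPL46 was at 25.2, 23.8 and 26.3 CPM against 29.9, 28.8 and 27.96 CPM, without overlap (log2 fold change 0.20), and MRPS11 at 50.2, 55.3 and 58.7 CPM against 51.8, 54.8 and 51.2 CPM, with overlap (−0.06). By whole gene span, 38 members (49.4%, against 58.7% of protein-coding genes tested) overlap an annotated gene on the other strand. The strand setting of the counting was not given, so whether reads of those genes entered the members' counts is not known. GENCODE 29 lists 70 pseudogenes of 33 members, 8 of them of MRPS21, so values of those members are uncertain.

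Other genes of mitochondrial protein synthesis were given from lists. Of 5 mitoribosomal proteins without an MRP name, none had an unadjusted p under 0.05 in edgeR (median 0.07), and 0 were called without shCtrl 3 (median 0.06). DAP3, a small subunit protein also known from cell death, was at 81.8, 86.1 and 89.1 CPM against 94.9, 90.2 and 86.4 CPM, and PTCD3, an RNA-binding protein of the small subunit, at 71.1, 70.5 and 66.9 CPM against 73.4, 75.5 and 71.6 CPM. Of 29 genes for ribosome assembly and modification of its RNA, 1 was higher and 1 lower at an unadjusted p under 0.05 (median 0.07). At that threshold 4.0% of all genes were higher and 7.33% lower. Without shCtrl 3, where 17.8% of all genes rose and 17.0% fell, 2 of the 29 rose and 0 fell (median 0.08). GTPBP10, a GTPase of large subunit assembly, was at 13.5, 12.5 and 14.6 CPM against 20.5, 17.1 and 15.9 CPM, without overlap, a log2 fold change of 0.40. RCC1L, another assembly factor, was at 76.0 to 77.2 CPM in the controls against 58.5, 64.1 and 65.9 CPM, also without overlap, at −0.29. None of 16 translation factors had an unadjusted p under 0.05 (median 0.06): the initiation factor gene MTIF2 was at 0.24 and MTIF3 at 0.05. Without shCtrl 3, 1 of the 16 rose and 0 fell (median 0.09).

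Among 11 genes that transcribe and maintain the mitochondrial genome the median was 0.20. At an unadjusted p under 0.05, 1 was higher, against 4.0% of all genes. That was SSBP1, the single-strand binding protein, at 84.9, 79.9 and 85.0 CPM against 117, 104 and 91.3 CPM. Without shCtrl 3, 4 of the 11 rose and 0 fell (median 0.23), with the same shares of all genes as background. The 13 proteins encoded by the mitochondrial genome, which the mitochondrial ribosome makes, had a median of −0.09 with 4 positive, and 0 had an unadjusted p under 0.05. Without shCtrl 3 none was called and the median was −0.14. MT-ND1 was at 1137, 1215 and 1515 CPM against 1256, 1390 and 1587 CPM, and MT-ND2 at 890, 923 and 834 CPM against 830, 862 and 1048 CPM. The median level of these 13 was highest in shDNAJC2 3 and lowest in shDNAJC2 1, so the groups overlapped. Of 9 regulators of nuclear genes for mitochondria, 1 was higher at an unadjusted p under 0.05 (median 0.16), against 4.0% of all genes. A single gene in so short a list does not set it apart from the whole table. Without shCtrl 3, 5 of the 9 rose and 0 fell (median 0.38), and in all 9 shCtrl 3 lay closer to the knockdown mean. The gene higher at an unadjusted p under 0.05 with all 6 libraries was GABPB1, a subunit of the ETS factor GABP. It was at 26.4, 26.3 and 31.0 CPM against 37.8, 36.2 and 30.9 CPM (adjusted p = 0.43 in edgeR). The groups overlapped, since shCtrl 3 lay just above shDNAJC2 3.

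Cytosolic ribosomal protein genes, the counterpart outside mitochondria, had a median log2 fold change of 0.25 over 79 genes, and all 79 were positive, against 0.05 and 48 of 77 for the mitochondrial set. Over all 6 libraries 0 of the 79 were called in edgeR (0% of all genes). At an unadjusted p under 0.05 there was 1, against 11.3% of all genes, and 0 were without overlap, against 15.8%. Without shCtrl 3 the cytosolic median was 0.41, and 38 of the 79 rose and 0 fell, against 17.8% and 17.0% of all genes. The mitochondrial set then had a median of 0.07, with 13 of 77 higher and 4 lower. The median level of the cytosolic set was −0.26, −0.27 and 0.12 in the controls, against 0.22, 0.26 and −0.11 in the knockdown. For 92.4% of them shCtrl 3 lay nearer to the knockdown mean, and for 66.2% of the mitochondrial set, against 74.6% of all genes tested. The difference between these lists was not tested.

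**Figure D5:**
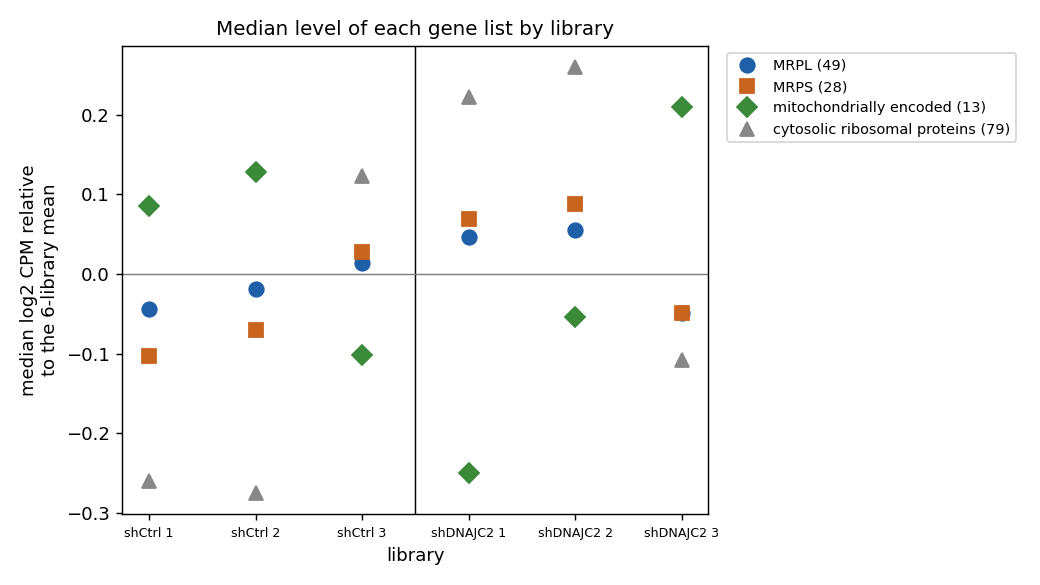
Median log2 CPM relative to the 6-library mean in each library for the large and small subunit genes, the mitochondrially encoded proteins and the cytosolic ribosomal proteins. The mitochondrial ribosomal protein medians stay between −0.10 and 0.09, while the cytosolic set runs from −0.27 to 0.26 with shCtrl 3 on the side of shDNAJC2 1 and 2.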

How the data were processed

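Messenger RNA enriched from total RNA was sequenced as paired-end Illumina libraries, 3 per group, per the labels' protocols. The authors deposited raw counts of reads per gene, with no normalization. The submitters' processing notes name GRCh38 and hg38 as builds. The aligner, counting program, annotation release and strand setting are not given in the sources used here.

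The whole table was fitted with edgeR 4.0.16 in R 4.3.3 (quasi-likelihood F test, two-sided, TMM, filterByExpr, group as the only term), with Benjamini-Hochberg adjustment over all 13988 genes tested and a threshold of 0.05. The scripts were tested on simulated counts. Alternatives were other size factors, no low-count filter, DESeq2 1.42.0, limma-voom (limma 3.58.1), a threshold of 0.01, a replicate block, a GC correction (a smoothing spline of 5 degrees of freedom per library, as an offset) and leaving out each library. Each gene took the length and GC content of its longest GENCODE 29 transcript. Medians of levels used log2(CPM + 0.1).

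The members and lists were chosen with earlier results of these data known. Named members were the up to 6 with the smallest p in each direction among those with an unadjusted p under 0.05, the up to 5 in each direction passing without shCtrl 3, the 2 highest and 2 lowest per kb in each subunit, and 9 chosen for their place in the ribosome. Others were printed for lack of overlap, ends of the GC range, a shared promoter region or an unadjusted p under 0.05 after GC correction. These members were chosen after their values were seen. For related lists, up to 3 genes with an unadjusted p under 0.05 were named, otherwise the first 2 listed. A further gene of the marker lists is not reported by name here.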

Additional observations from a re-analysis of the deposited data

How the results depend on the processing

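No member was called over all 6 libraries under any alternative run in edgeR, DESeq2 or limma-voom. The count of members called ran from 0 to 17 when each library was left out in turn, 17 being without shCtrl 3, and that of all genes from 0 to 4945. DESeq2 called 35 genes. DNAJC2 was at −0.73 by DESeq2 (adjusted p = 0.0364) and at −0.65 without shCtrl 3 (adjusted p = 0.0080), and ran from −0.81 to −0.60 with a library left out. The median of MRPL genes was 0.0904 with the GC correction, 0.0933 with replicate block and GC correction together, and 0.0193 to 0.0772 with a library left out, and that of MRPS genes 0.0273 to 0.14, both highest without shDNAJC2 3. With upper-quartile size factors the MRPL median was −0.00059. Of the 28 named members, 19 kept their sign under every alternative. With the GC correction MRPL12 turned to 0.0774, MRPL28 to 0.0044, MRPL44 to −0.0049 and MRPS34 to 0.17, and with the block as well to 0.0729, 0.00034, −0.0047 and 0.17. MRPL58 turned to −0.0038 by limma-voom and −0.0135 with upper-quartile size factors. With a library left out, MRPL51 ran from −0.0313 to 0.0262, MRPL58 from −0.0732 to 0.11, MRPS12 from −0.0730 to 0.35, MRPS18A from −0.0495 to 0.28, MRPS18B from −0.0503 to 0.26 and MRPS34 from −0.16 to 0.0708. The cause of these turns was not tested. The groups share replicate numbers in the sample titles, which do not say whether same-numbered libraries were prepared as pairs. Deviations of same-numbered libraries from their group means correlated at −0.38, −0.52 and −0.66. Deviations within a group of 3 sum to 0, so these values are not independent and cannot decide it. The main fit did not use the block. With the block, 0 members and 0 genes passed in edgeR (0 members and 439 genes at an unadjusted p under 0.05). The lowest count of any member in a library was 318.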
